A study of Mus musculus with 48 samples.

Results

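The genes described here encode the proteasome and the enzymes that hand ubiquitin to proteins: every named gene whose symbol starts with Psma to Psmg or with Ube2, without Psmb8, Psmb9 and Psmb10, which were left aside as the interferon-induced catalytic subunits. By that rule 43 genes were found among 7859 named genes, 23 Psm genes and 20 Ube2 genes. Their levels come from whole kidney of 48 female BALB/c mice, 1 Affymetrix array per mouse, in 8 groups of 6. Mice had received 7 daily injections of vancomycin at 50, 200 or 400 mg/kg, or of saline, by the intraperitoneal (ip) or the intravenous (iv) route, and kidneys were taken on day 8. Vancomycin, an antibiotic of the glycopeptide class, can injure the kidney. The labels name no other agent and no altered allele in any group.

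The proteasome is the protease that breaks down ubiquitin-tagged proteins in the cytosol and nucleus. Its barrel-shaped core is built from alpha (Psma) and beta (Psmb) rings, a regulatory cap with ATPases (Psmc) and non-ATPases (Psmd) recognises and unfolds the substrate, and alternative caps (Psme) open the barrel without ATP. Ube2 genes encode the E2 enzymes, which take ubiquitin or a ubiquitin-like protein from an activating E1 enzyme and, with an E3 ligase, attach it to the target. In the kidney, proximal tubule cells take up filtered proteins and drugs, vancomycin among them, and are the main site of its injury.

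The deposited order of values and probe set names is shifted, so a row was named only within 3 stretches of the table where the offset is known, which hold 24.4% of the probe sets. Within these rows, pairs of probe sets of the same gene had correlated mean levels by the offsets (r = 0.494 over 2927 pairs, across probe sets, which are not independent) and less so as listed (r = 0.142 over 3132 pairs). Other proteasome and Ube2 genes lie on rows left unnamed and are not analysed here. A gene with several named rows was taken at the row with the highest mean, and 17 of the 43 had several. Of the 43 genes, 41 (22 Psm and 19 Ube2) passed the filter on low values, a log2 intensity above the table's median of 3.47 in at least 6 arrays. Psma8, a testis-specific alpha subunit, and Ube2d2b did not, with group medians of 2.41 to 2.52 and of 2.75 to 2.92. Levels of different probe sets are not comparable with each other, so each gene is compared only with itself.

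Arrays of the ip groups had higher medians (3.47 to 3.68, against 3.34 to 3.55 in iv arrays) and 90th percentiles (9.07 to 9.23, against 8.28 to 8.75 in iv arrays), and array scale and route cannot be told apart, so doses were compared within a route. Within a route, array medians were also higher at 400 mg/kg: 3.59 to 3.68 by ip, against 3.49 to 3.58 in ip saline. By iv they were 3.39 to 3.52, against 3.34 to 3.37 in iv saline, with mouse 1 at 3.47. Array scale and the 400 mg/kg dose are thus not fully apart either. After centring of the arrays, 12 of 19 genes that passed the test described below at ip 400 mg/kg still passed, and 20 of 29 at iv 400 mg/kg. Mouse 1 (iv saline) and mouse 9 (iv 50 mg/kg) stood apart from their groups. Mouse 1 had a median difference over the 22 Psm genes of -0.49 from the iv saline mean, where the other 5 iv saline mice lay between 0.07 and 0.11. Counts at 400 mg/kg against saline are therefore also given without both mice. The other counts that use iv mice are not given without this pair. Of the markers of the labelled tissue, 12 of 21 listed proximal tubule genes and 7 of 8 loop and distal tubule genes were named and tested, with summed levels in saline mice of 15.47 to 16.29 and of 15.11 to 15.87 (log2).

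At 400 mg/kg by the iv route, 29 of 41 genes (70.7%) rose and 0 fell in a limma fit over all 5748 tested genes (adjusted p under 0.05), where 30.7% of all tested genes rose and 19% fell. By the ip route 18 of 41 (43.9%) rose and 1, Psmd9, fell, where 36.3% of all tested genes rose and 25.1% fell. The median log2 fold change of the 41 genes was 0.41 at iv 400 mg/kg and 0.26 at ip 400 mg/kg, beside 0.09 and 0.11 over all tested genes. The share that rose was well above the background by the iv route and near it by the ip route. Without mice 1 and 9 the iv count was 22 up and 1 down (Psmd9), and the ip count was 22 up and 1 down. The share of all tested genes in that fit is not given here. The iv rises lost without them were those of Psme3ip1, Psmg3, Ube2d1, Ube2d3, Ube2j1, Ube2j2 and Ube2z. Ube2t passed the filter only through the 400 mg/kg mice and so had to differ there; without it 28 of 40 genes rose at iv 400 mg/kg, and 17 of 40 rose and 1 fell at ip 400 mg/kg. In whole-kidney RNA, fewer cells of a type and less RNA per cell cannot be told apart.

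Both gene groups held rises. Of the 22 Psm genes, 14 rose at iv 400 mg/kg (median 0.42), and 9 rose and 1 fell at ip 400 mg/kg (median 0.26). Of the 19 Ube2 genes, 15 rose at iv 400 mg/kg (median 0.41) and 9 at ip 400 mg/kg (median 0.25). All 18 genes that rose by the ip route also rose by the iv route. Another 11 passed the test by the iv route alone, but none of the 41 passed a test of the difference between the routes, as given further on. For 11 of 41 genes every iv 400 mg/kg mouse lay above every iv saline mouse, where this held for 15.1% of all tested genes. For 9 of 41 every ip 400 mg/kg mouse lay above every ip saline mouse, where this held for 24.1% of all tested genes. Ube2t, kept only through its 400 mg/kg values, is among the Ube2 rises by both routes and in both of these counts.

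**Figure D1:**
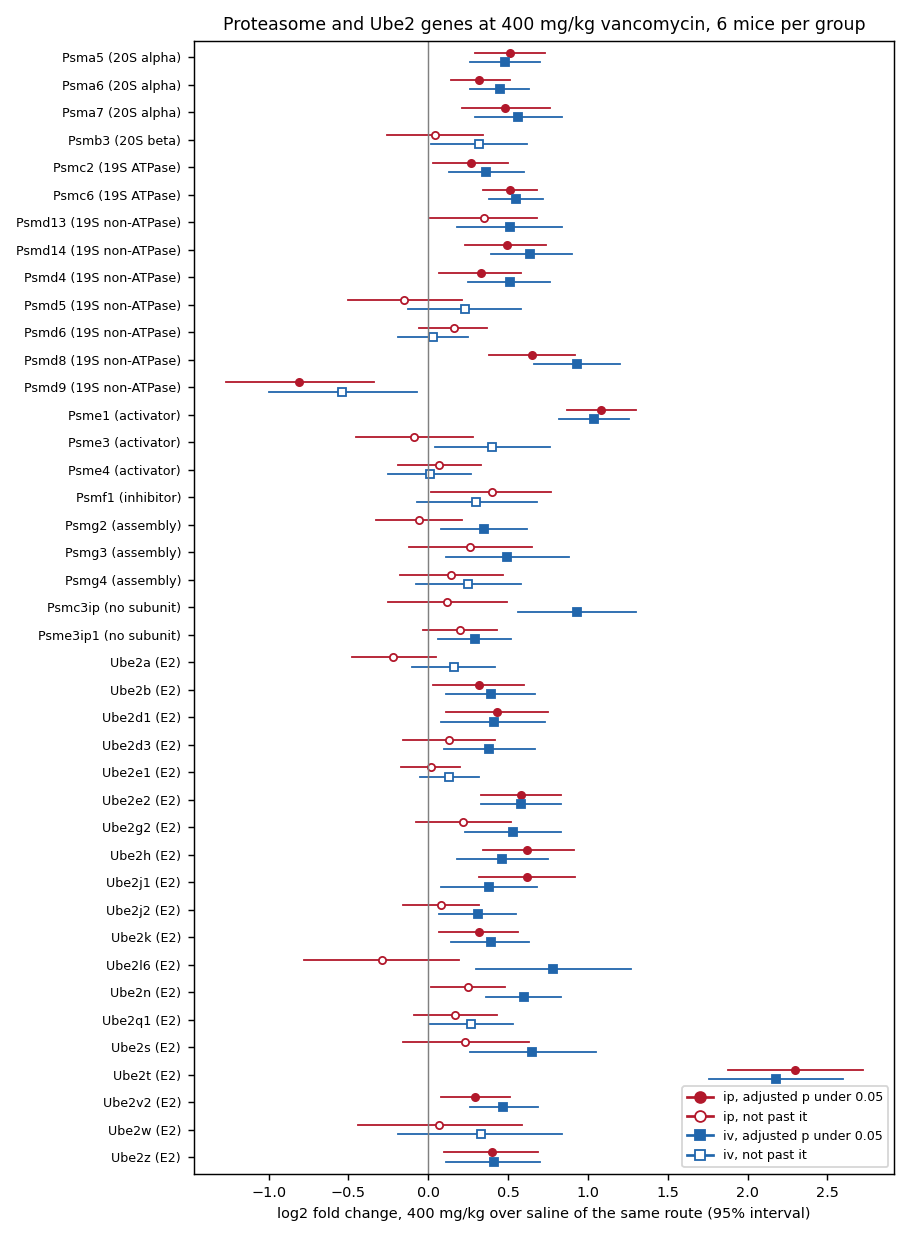
Log2 fold change of each of the 41 genes at 400 mg/kg over the saline group of the same route, with its 95% interval, for ip (circles) and iv (squares), 6 mice per group; filled symbols passed adjusted p under 0.05 and the particle or class is in brackets. Of the 41 intervals, 32 lie right of 0 by iv and 21 by ip, and that of Psmd9 lies to the left. Ube2t stands far to the right at 2.30 (ip) and 2.18 (iv). It was kept only because it was high at 400 mg/kg, so its symbols are a description and not a test.

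Promoters are shown for Ube2t, Psme1 and Psmd8, which were among the genes with the highest log2 differences at 400 mg/kg by both routes (Psmc3ip equalled Psmd8 by iv, at 0.93), for Psmd9, which fell by ip, and for Psmc6, the cap ATPase with the lowest adjusted p, so that the sequence before the start of these genes can be read beside their values. Each window runs from 250 bases before to 30 bases after the annotated start and is read on the gene's strand from RefSeq, build GRCm38.p6. Psme1 lies at chr14:55578244-55578523 on the plus strand, Ube2t at chr1:134962315-134962594 on the plus strand, Psmd8 at chr7:29180644-29180923 on the minus strand, Psmc6 at chr14:45329574-45329853 on the plus strand and Psmd9 at chr5:123227940-123228219 on the plus strand. Capitals mark GAAANNGAA, part of interferon-responsive elements, in Psme1, the CCAAT box CCAAT in Ube2t, TTTGAA, the cell cycle homology region, in Psmd8, and TGACNNNGC, the core of the antioxidant response element, in Psmc6 and Psmd9.
Psme1: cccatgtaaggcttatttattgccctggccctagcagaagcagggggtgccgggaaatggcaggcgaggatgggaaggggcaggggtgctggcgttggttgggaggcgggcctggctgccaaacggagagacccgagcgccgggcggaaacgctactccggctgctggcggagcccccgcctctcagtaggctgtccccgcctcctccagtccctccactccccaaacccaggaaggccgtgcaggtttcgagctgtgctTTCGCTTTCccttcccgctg
Ube2t: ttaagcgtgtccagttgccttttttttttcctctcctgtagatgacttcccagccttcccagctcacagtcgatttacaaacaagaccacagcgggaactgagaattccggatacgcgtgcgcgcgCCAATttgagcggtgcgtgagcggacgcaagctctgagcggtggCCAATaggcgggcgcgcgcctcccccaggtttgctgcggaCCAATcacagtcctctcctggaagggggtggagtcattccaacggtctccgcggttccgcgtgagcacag
Psmd8: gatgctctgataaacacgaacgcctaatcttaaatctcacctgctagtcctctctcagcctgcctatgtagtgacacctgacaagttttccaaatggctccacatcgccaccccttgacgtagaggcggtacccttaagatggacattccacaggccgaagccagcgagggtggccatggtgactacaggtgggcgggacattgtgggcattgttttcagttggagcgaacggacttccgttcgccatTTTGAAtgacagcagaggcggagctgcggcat
Psmc6: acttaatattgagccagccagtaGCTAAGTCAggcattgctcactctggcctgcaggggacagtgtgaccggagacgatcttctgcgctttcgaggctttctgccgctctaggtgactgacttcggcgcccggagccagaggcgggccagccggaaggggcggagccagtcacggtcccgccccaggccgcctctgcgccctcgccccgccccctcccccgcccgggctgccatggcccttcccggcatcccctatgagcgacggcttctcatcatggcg
Psmd9: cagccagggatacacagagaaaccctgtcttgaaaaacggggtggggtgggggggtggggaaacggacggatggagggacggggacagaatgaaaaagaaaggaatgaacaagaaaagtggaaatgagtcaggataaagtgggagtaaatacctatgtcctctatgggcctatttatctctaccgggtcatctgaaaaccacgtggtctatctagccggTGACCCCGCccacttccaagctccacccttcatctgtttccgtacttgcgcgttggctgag

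RefSeq held a promoter for 38 of the 43 genes, 37 of them tested, and the first listed start was used for the 8 with several. Motifs were searched on both strands over the full 300 bases. GAAANNGAA was found in 6 of 37 (16.2%, against 8.56% of all 32851 promoters of this length), namely Psmb3, Psmd4, Psmd9, Psme1, Psmg4 and Ube2d3. TGACNNNGC was found in 4 (10.8%, against 12.4% of all), CCAAT in 11 (29.7%, against 37.4%) and TTTGAA in 3 (8.11%, against 17.9%). TTCNNNGAA, a STAT site, was found in 1 (2.7%, against 8.3%). Ube2t carried CCAAT 3 times, first bases at -124, -80 and -40 from the start. These are matches of letters in a window, and no binding was measured.

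Among the core subunits, all 3 measured alpha-ring genes rose by both routes. Psma5 (1434356_a_at) read 10.61, 10.70 and 10.86 in saline, 10.60, 10.76 and 10.87 at 50, 10.45, 10.62 and 10.86 at 200, and 11.12, 11.23 and 11.42 at 400 mg/kg by the ip route (lowest, median and highest log2 intensity of 6 mice). In iv mice Psma5 read 10.03, 10.27 and 10.43 in saline, 10.05, 10.33 and 10.42 at 50, 10.17, 10.64 and 11.09 at 200, and 10.31, 10.71 and 11.12 at 400 mg/kg. Every ip 400 mg/kg mouse was above every ip saline mouse, and 5 of 6 iv 400 mg/kg mice were above the highest iv saline mouse (ip: log2 fold change 0.51, 95% interval 0.29 to 0.73, adjusted p = 0.0001; iv: log2 fold change 0.48, 95% interval 0.26 to 0.70, adjusted p = 0.00032).

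Psma6 (1416506_at) read 11.73, 11.85 and 12.04 in saline, 11.65, 11.83 and 12.11 at 50, 11.71, 11.86 and 12.13 at 200, and 12.03, 12.20 and 12.39 at 400 mg/kg by the ip route. In iv mice Psma6 read 11.09, 11.29 and 11.42 in saline, 11.24, 11.37 and 11.46 at 50, 11.24, 11.46 and 11.68 at 200, and 11.39, 11.75 and 11.96 at 400 mg/kg. At 400 mg/kg 5 of 6 mice exceeded every saline mouse of their route, with a log2 fold change of 0.32 by ip (adjusted p = 0.0022) and 0.45 by iv (adjusted p = 6.4e-05). Psma7 (1423568_at) averaged 11.21 ± 0.30 at ip 400 mg/kg and 10.72 ± 0.21 in ip saline, and 10.87 ± 0.18 at iv 400 mg/kg and 10.30 ± 0.14 in iv saline (SD, n = 6 each). Its log2 fold change was 0.48 by ip and 0.56 by iv (adjusted p = 0.0019 and 0.00051), and by the iv route the groups did not overlap. Another probe set changed by like amounts for Psma5 (0.49 by ip and 0.57 by iv) and Psma7 (0.54 and 0.49). For Psma6 one other probe set rose by iv (0.31, adjusted p = 0.027) and the rest did not pass. The beta-ring gene measured here, Psmb3, a structural subunit with no catalytic site, averaged 10.36 ± 0.30 at ip 400 mg/kg and 10.32 ± 0.21 in ip saline, and 10.66 ± 0.25 at iv 400 mg/kg and 10.34 ± 0.28 in iv saline. It did not pass the test by ip (0.04, adjusted p = 0.82) or by iv (0.32, adjusted p = 0.069).

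Both measured ATPases of the cap, which unfold the substrate and thread it into the barrel, rose by both routes on the probe set used. Psmc6 (1417771_a_at) read 10.37, 10.51 and 10.67 in saline, 10.27, 10.55 and 10.69 at 50, 10.37, 10.54 and 10.75 at 200, and 10.89, 10.99 and 11.30 at 400 mg/kg by the ip route. In iv mice Psmc6 read 9.60, 10.09 and 10.18 in saline, 10.04, 10.09 and 10.16 at 50, 9.99, 10.24 and 10.41 at 200, and 10.40, 10.60 and 10.68 at 400 mg/kg. The 400 mg/kg mice did not overlap the saline mice in either route (ip: log2 fold change 0.51, 95% interval 0.34 to 0.68, adjusted p = 1.2e-06; iv: log2 fold change 0.55, 95% interval 0.38 to 0.72, adjusted p = 5.2e-07). Its other probe sets did not follow: they gave 0.08 and -0.16 by ip and -0.09 and -0.22 by iv, none past the threshold. Psmc2 (1426611_at) read 10.71, 10.97 and 11.09 in saline, 10.64, 10.95 and 11.18 at 50, 10.85, 11.00 and 11.19 at 200, and 10.88, 11.14 and 11.54 at 400 mg/kg by the ip route. In iv mice Psmc2 read 10.12, 10.35 and 10.50 in saline, 9.94, 10.23 and 10.41 at 50, 10.00, 10.41 and 11.03 at 200, and 10.55, 10.63 and 10.85 at 400 mg/kg. All 6 iv 400 mg/kg mice were above every iv saline mouse (log2 fold change 0.36, 95% interval 0.13 to 0.60, adjusted p = 0.0095), and 4 of 6 ip 400 mg/kg mice were above every ip saline mouse, at a log2 fold change of 0.27 whose adjusted p of 0.0495 lay next to the threshold and no longer passed under 12 of the 21 alternatives tried.

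Of the genes with Psmd symbols, Psmd8, a lid subunit, had the largest rise by both routes. Psmd8 (1423296_at) read 10.39, 10.61 and 10.81 in saline, 10.34, 10.76 and 10.83 at 50, 10.40, 10.69 and 10.74 at 200, and 11.04, 11.22 and 11.69 at 400 mg/kg by the ip route. In iv mice Psmd8 read 10.12, 10.38 and 10.62 in saline, 10.15, 10.36 and 10.69 at 50, 10.20, 10.71 and 11.29 at 200, and 11.09, 11.30 and 11.59 at 400 mg/kg. In both routes all 6 mice at 400 mg/kg exceeded all saline mice, 1.57-fold by ip and 1.91-fold by iv (ip: log2 fold change 0.65, 95% interval 0.38 to 0.92, adjusted p = 4.1e-05; iv: log2 fold change 0.93, 95% interval 0.66 to 1.20, adjusted p = 1.1e-07). At iv 200 mg/kg 4 of 6 mice were above the highest iv saline mouse, and the group did not pass the test (0.27, adjusted p = 0.23).

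Psmd14 encodes the deubiquitinase that cuts ubiquitin off the substrate before it enters the barrel. Psmd14 (1421751_a_at) read 9.85, 10.07 and 10.39 in saline, 9.87, 10.06 and 10.20 at 50, 9.99, 10.11 and 10.16 at 200, and 10.33, 10.52 and 10.99 at 400 mg/kg by the ip route. In iv mice Psmd14 read 9.26, 9.58 and 9.75 in saline, 9.45, 9.63 and 9.70 at 50, 9.52, 9.79 and 10.69 at 200, and 9.83, 10.21 and 10.66 at 400 mg/kg. At 400 mg/kg 5 of 6 ip mice and all 6 iv mice were above every saline mouse of their route (ip: log2 fold change 0.49, 95% interval 0.23 to 0.74, adjusted p = 0.00098; iv: log2 fold change 0.64, 95% interval 0.39 to 0.90, adjusted p = 4.1e-05). The ubiquitin receptor Psmd4 (1418874_a_at) read 10.38, 10.49 and 10.99 in saline, 10.15, 10.50 and 10.72 at 50, 10.34, 10.52 and 10.67 at 200, and 10.69, 10.88 and 11.03 at 400 mg/kg by the ip route. In iv mice Psmd4 read 9.74, 10.41 and 10.58 in saline, 9.99, 10.43 and 10.46 at 50, 10.10, 10.61 and 10.88 at 200, and 10.69, 10.75 and 11.19 at 400 mg/kg. It rose by both routes (ip: 0.33, adjusted p = 0.023; iv: 0.51, adjusted p = 0.0008), without overlap by iv, and with 1 of 6 ip 400 mg/kg mice above the highest ip saline mouse. Another Psmd4 probe set rose by iv (0.39, adjusted p = 0.024) and gave 0.31 by ip (adjusted p = 0.064).

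Psmd13, a lid subunit, averaged 9.19 ± 0.22 at ip 400 mg/kg and 8.85 ± 0.11 in ip saline, and 8.87 ± 0.18 at iv 400 mg/kg and 8.36 ± 0.47 in iv saline. It rose by iv (0.51, adjusted p = 0.0093), though not without mouse 1 (0.33, adjusted p = 0.066), and did not pass by ip (0.35, adjusted p = 0.067). Psmd6, also a lid subunit, did not pass by either route: it averaged 11.84 ± 0.07 at ip 400 mg/kg and 11.68 ± 0.21 in ip saline, and 10.99 ± 0.21 at iv 400 mg/kg and 10.96 ± 0.24 in iv saline. The 95% interval of its log2 fold change was -0.06 to 0.37 by ip and -0.19 to 0.25 by iv. Over the 13 Psma, Psmb, Psmc and Psmd genes together, 8 rose and 1 fell at ip 400 mg/kg (median 0.33) and 9 rose at iv 400 mg/kg (median 0.48). Of all tested genes 36.3% rose and 25.1% fell by ip (median 0.11), and 30.7% rose and 19% fell by iv (median 0.09). The 13 include Psmd5 and Psmd9, described next, and the fall was that of Psmd9.

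Psmd9 and Psmd5 carry Psmd symbols but encode chaperones that help assemble the base of the cap and leave the finished particle. Psmd9 (1423386_at) was the one gene that fell. Psmd9 read 8.02, 8.47 and 8.88 in saline, 7.88, 8.51 and 9.01 at 50, 8.19, 8.33 and 8.89 at 200, and 6.83, 7.72 and 8.15 at 400 mg/kg by the ip route. In iv mice Psmd9 read 7.20, 8.35 and 8.63 in saline, 7.94, 8.11 and 8.69 at 50, 7.52, 7.91 and 8.80 at 200, and 6.99, 7.66 and 8.29 at 400 mg/kg. At ip 400 mg/kg 5 of 6 mice were below every ip saline mouse (log2 fold change -0.81, 95% interval -1.27 to -0.34, adjusted p = 0.0024). At iv 400 mg/kg 2 of 6 mice were below the lowest iv saline mouse, and the change just missed the threshold (log2 fold change -0.54, 95% interval -1.00 to -0.07, adjusted p = 0.05); it passed as a fall without mice 1 and 9, after centring or quantile normalization of the arrays, with array weights and under a stricter filter (adjusted p of 0.00618 to 0.0458). Psmd5 averaged 8.76 ± 0.24 at ip 400 mg/kg and 8.91 ± 0.08 in ip saline, and 8.79 ± 0.24 at iv 400 mg/kg and 8.56 ± 0.51 in iv saline, and did not pass by ip (-0.15, adjusted p = 0.47) or iv (0.23, adjusted p = 0.29).

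**Figure D2:**
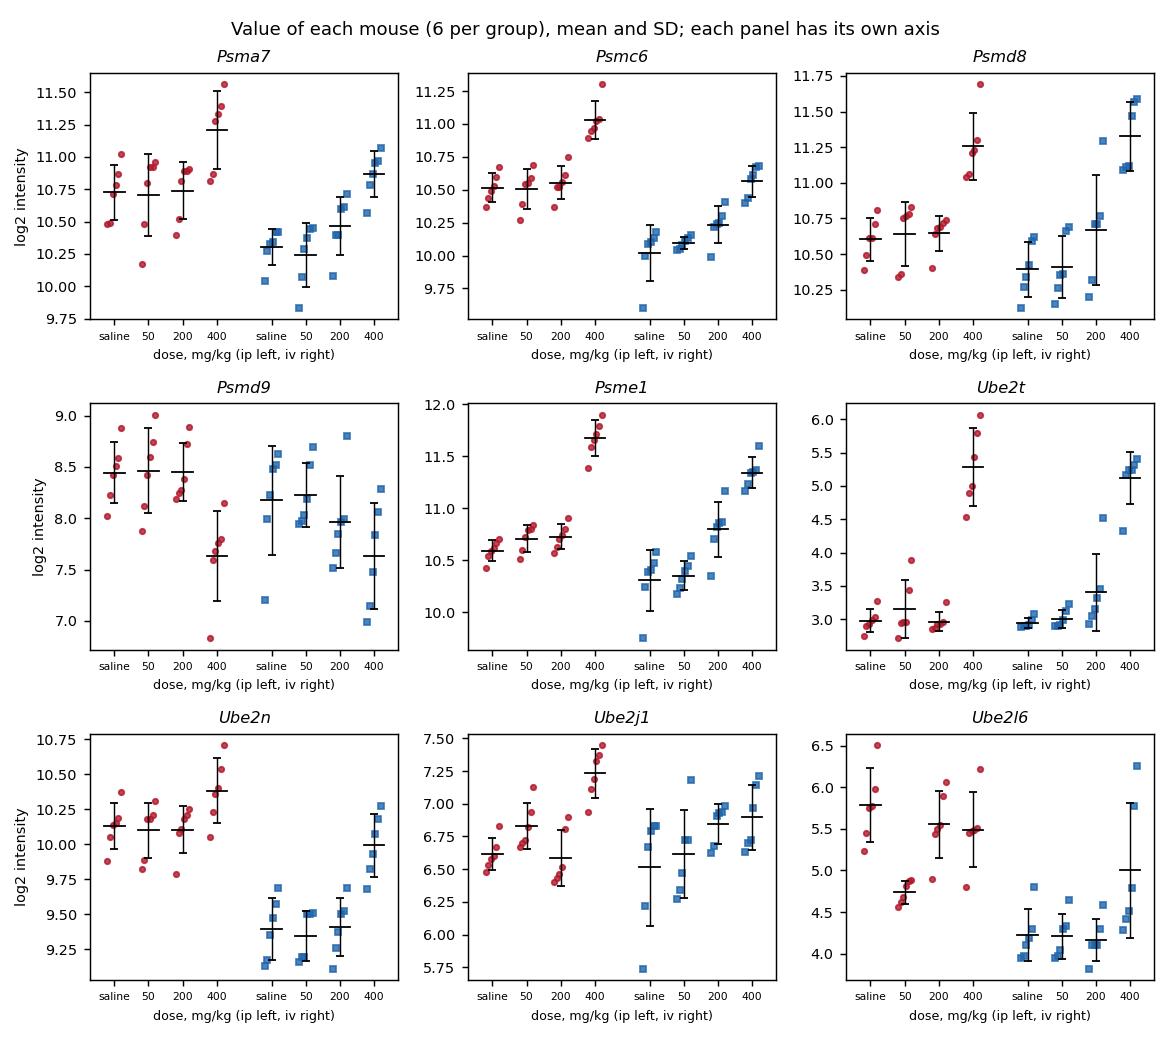
Log2 intensity of every mouse for 9 genes, doses from saline to 400 mg/kg with the ip groups left (circles) and the iv groups right (squares); bars are the mean and its SD, and each panel has its own axis. Psme1 and Psmd8 separate the 400 mg/kg mice from saline in both routes, Psmd9 lies lower at 400 mg/kg, and Ube2l6 differs between the routes already in saline. Ube2t also separates them, but was kept only because it was high at 400 mg/kg.

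Psme1 encodes the alpha subunit of the interferon-inducible activator cap, which favours peptides for antigen presentation. Psme1 (1417056_at) read 10.43, 10.61 and 10.71 in saline, 10.51, 10.76 and 10.84 at 50, 10.57, 10.72 and 10.91 at 200, and 11.39, 11.69 and 11.90 at 400 mg/kg by the ip route. In iv mice Psme1 read 9.75, 10.40 and 10.58 in saline, 10.18, 10.36 and 10.54 at 50, 10.35, 10.84 and 11.17 at 200, and 11.17, 11.35 and 11.60 at 400 mg/kg. All 6 mice at 400 mg/kg exceeded all saline mice in both routes, 2.12-fold by ip and 2.05-fold by iv (ip: log2 fold change 1.08, 95% interval 0.87 to 1.30, adjusted p = 7.1e-12; iv: log2 fold change 1.04, 95% interval 0.82 to 1.26, adjusted p = 6.2e-11). At iv 200 mg/kg 5 of 6 mice were above every iv saline mouse, and the group had already passed the test (log2 fold change 0.49, 95% interval 0.27 to 0.71, adjusted p = 0.0023); iv 400 mg/kg was again above iv 200 mg/kg (0.55, adjusted p = 8.9e-05). Mouse 1 held the lowest iv saline value, 9.75. The other activators did not pass: the nuclear Psme3 gave -0.09, adjusted p = 0.7 by ip and 0.40, adjusted p = 0.06 by iv, and Psme4 gave 0.07, adjusted p = 0.65 by ip and 0.01, adjusted p = 0.95 by iv. The partner of Psme1 in its ring, Psme2, is not analysed here.

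Genes of interferon response and antigen presentation rose in the same groups. Of 28 listed, 14 were named and tested, and 13 of these rose at ip 400 mg/kg (median 2.03) and 13 at iv 400 mg/kg (median 1.76). Their summed level ranged from 11.99 to 13.37 (log2) at ip 400 mg/kg, against 10.54 to 10.96 in ip saline, and from 11.36 to 13.07 at iv 400 mg/kg, against 9.98 to 10.49 in iv saline. Psmb8, the interferon-induced catalytic subunit that the rule left aside, averaged 9.99 ± 0.62 at ip 400 mg/kg and 6.50 ± 0.35 in ip saline, and 9.39 ± 0.66 at iv 400 mg/kg and 6.23 ± 0.36 in iv saline, log2 fold changes of 3.49, adjusted p = 1.7e-15 by ip and 3.16, adjusted p = 1.5e-13 by iv. Macrophage and myeloid genes also rose, 15 of 15 tested at ip 400 mg/kg (median 4.29) and 14 of 15 at iv 400 mg/kg (median 3.16). Their summed level was 13.66 to 14.91 at ip 400 mg/kg, against 9.43 to 10.34 in ip saline, and 12.49 to 13.91 at iv 400 mg/kg, against 9.45 to 9.70 in iv saline. Cxcl9 of the interferon list and Itgam and Cybb of the myeloid list averaged below the filter's level of 3.47 outside 400 mg/kg. Genes kept through their 400 mg/kg values had to be higher there, so the counts and medians of both lists are a description. All 12 tested proximal tubule genes fell by both routes, with a summed level of 12.82 to 14.52 at ip 400 mg/kg, against 16.08 to 16.29 in ip saline, and of 13.32 to 15.13 at iv 400 mg/kg, against 15.47 to 16.21 in iv saline. All 7 tested loop and distal tubule genes fell as well (median -1.67 by ip and -1.39 by iv). Of 5 tested collecting duct genes, 3 fell by ip and 4 by iv. All 4 tested fibroblast genes and all 6 tested tubular injury genes rose by both routes, beside 36.3% of all tested genes by ip and 30.7% by iv. Outside 400 mg/kg, Krt20 and Cd44 of the injury list averaged above 3.47 only at iv 200 mg/kg (5.44 ± 1.81 and 4.17 ± 1.12). A gene kept through its 400 mg/kg values had to be higher there, so the injury count is a description too. The T and NK lymphocyte, B lymphocyte and red blood cell lists had 1 tested gene each and the neutrophil list had 0. The part of these cell types in the change of Psme1 and of the other genes was not tested.

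Of the inhibitor and the assembly genes, 2 of 4 rose by iv and 0 of 4 by ip (lowest adjusted p by ip = 0.061, for Psmf1). Psmf1, an inhibitor of the core particle in vitro, averaged 7.25 ± 0.16 in saline, 7.32 ± 0.16 at 50, 7.32 ± 0.21 at 200 and 7.64 ± 0.16 at 400 mg/kg by the ip route (SD, n = 6 each). In iv mice Psmf1 averaged 6.23 ± 0.46 in saline, 6.49 ± 0.60 at 50, 6.70 ± 0.21 at 200 and 6.54 ± 0.34 at 400 mg/kg. It did not pass at 400 mg/kg by ip (0.40, adjusted p = 0.061) or by iv (0.30, adjusted p = 0.17), while one of its other probe sets rose by iv (0.40, adjusted p = 0.039). Psmg2, Psmg3 and Psmg4 encode chaperones that assemble the alpha ring. Psmg2 averaged 9.04 ± 0.16 in saline, 9.01 ± 0.26 at 50, 8.99 ± 0.09 at 200 and 8.99 ± 0.31 at 400 mg/kg by the ip route. In iv mice Psmg2 averaged 8.54 ± 0.21 in saline, 8.73 ± 0.19 at 50, 8.67 ± 0.25 at 200 and 8.89 ± 0.30 at 400 mg/kg, and it passed at iv 400 mg/kg (0.35, adjusted p = 0.025; ip: -0.06, adjusted p = 0.72), a call lost after centring or quantile normalization of the arrays. Psmg3 averaged 7.58 ± 0.22 at ip 400 mg/kg and 7.31 ± 0.09 in ip saline, and 7.22 ± 0.35 at iv 400 mg/kg and 6.73 ± 0.54 in iv saline, and passed by iv (0.49, adjusted p = 0.029) but not by ip (0.26, adjusted p = 0.23). The iv call of Psmg3 was lost without mouse 1, at 0.28 (adjusted p = 0.18). Psmg4 averaged 5.72 ± 0.22 in saline, 5.90 ± 0.26 at 50, 5.95 ± 0.25 at 200 and 5.86 ± 0.25 at 400 mg/kg by the ip route. In iv mice Psmg4 averaged 6.24 ± 0.24 in saline, 6.28 ± 0.31 at 50, 6.32 ± 0.25 at 200 and 6.49 ± 0.41 at 400 mg/kg, and it did not pass at 400 mg/kg (0.14, adjusted p = 0.45 by ip; 0.25, adjusted p = 0.2 by iv).

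Psmc3ip and Psme3ip1 match the symbol rule but encode no subunit: Psmc3ip is a cofactor of meiotic recombination that binds an ATPase subunit, and Psme3ip1 binds the nuclear activator. Psmc3ip (1425271_at) read 5.73, 5.83 and 6.45 in saline, 5.27, 5.91 and 6.27 at 50, 5.62, 5.75 and 6.12 at 200, and 5.33, 6.10 and 6.60 at 400 mg/kg by the ip route. In iv mice Psmc3ip read 4.50, 5.27 and 5.50 in saline, 5.10, 5.45 and 5.70 at 50, 5.36, 5.61 and 6.26 at 200, and 5.86, 6.15 and 6.40 at 400 mg/kg. All 6 iv 400 mg/kg mice were above every iv saline mouse (log2 fold change 0.93, 95% interval 0.56 to 1.30, adjusted p = 3.6e-05), and the ip groups overlapped (0.12, adjusted p = 0.57). Psme3ip1 averaged 8.39 ± 0.10 in saline, 8.44 ± 0.11 at 50, 8.41 ± 0.07 at 200 and 8.60 ± 0.15 at 400 mg/kg by the ip route. In iv mice Psme3ip1 averaged 7.95 ± 0.37 in saline, 7.96 ± 0.21 at 50, 8.14 ± 0.11 at 200 and 8.23 ± 0.22 at 400 mg/kg, and it rose by iv (0.29, adjusted p = 0.034) and did not pass by ip (0.20, adjusted p = 0.12). Without mouse 1 the iv change of Psme3ip1 was 0.14 (adjusted p = 0.23). Without these 2, 9 of 20 Psm genes (45%) rose and 1 fell at ip 400 mg/kg, beside 36.3% and 25.1% of all tested genes. At iv 400 mg/kg 12 of 20 (60%) rose, beside 30.7% of all tested genes.

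Ube2t encodes the E2 that ubiquitinates the Fanconi anaemia proteins at damaged DNA. Ube2t (1422462_at) read 2.74, 2.96 and 3.27 in saline, 2.71, 2.95 and 3.89 at 50, 2.85, 2.93 and 3.25 at 200, and 4.53, 5.21 and 6.07 at 400 mg/kg by the ip route. In iv mice Ube2t read 2.88, 2.90 and 3.07 in saline, 2.89, 2.95 and 3.22 at 50, 2.93, 3.23 and 4.52 at 200, and 4.33, 5.24 and 5.40 at 400 mg/kg. All 12 mice at 400 mg/kg were above the filter's level of 3.47, against 2 of the other 36 mice, so the gene was kept only because it was high at 400 mg/kg. The group means differed by 2.30 by ip and 2.18 by iv on the log2 scale, given as a description: the saline groups lie near the bottom of the measured range, and no test is drawn from them. At iv 200 mg/kg 4 of 6 mice exceeded every iv saline mouse, mouse 25 at 4.52.

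Cell cycle genes rose in the same groups. Of 24 listed, 13 were tested, and 12 rose at ip 400 mg/kg (median 3.44) and 12 at iv 400 mg/kg (median 2.63), with 1 that fell by ip. Their summed level was 12.21 to 13.00 at ip 400 mg/kg, against 10.39 to 10.94 in ip saline, and 11.91 to 12.88 at iv 400 mg/kg, against 10.13 to 10.63 in iv saline. The sum is of linear intensity, and most of it is 1 gene, Pcna. By ip Pcna averaged 11.76 ± 0.31 at 400 mg/kg and 10.53 ± 0.24 in saline. By iv it averaged 11.92 ± 0.38 and 10.29 ± 0.20. Aurka, Aurkb, Bub1 and Bub1b averaged below the filter's level of 3.47 in every group outside 400 mg/kg. Genes kept through their 400 mg/kg values had to be higher there, so the counts and medians of this list are a description. Cdc20, which activates the anaphase-promoting E3 ligase in mitosis, averaged 7.75 ± 0.49 at ip 400 mg/kg and 4.31 ± 0.49 in ip saline, and 7.41 ± 0.44 at iv 400 mg/kg and 4.19 ± 0.29 in iv saline (SD, n = 6 each). The other E2 of the cell cycle measured here, Ube2s, extends chains on targets of that ligase. Ube2s (1416726_s_at) read 9.21, 9.44 and 9.86 in saline, 9.07, 9.33 and 9.94 at 50, 8.95, 9.44 and 9.73 at 200, and 9.18, 9.63 and 10.47 at 400 mg/kg by the ip route. In iv mice Ube2s read 8.58, 8.92 and 9.31 in saline, 8.50, 8.94 and 9.32 at 50, 8.51, 9.08 and 9.34 at 200, and 8.90, 9.78 and 10.01 at 400 mg/kg. It rose by iv, with 4 of 6 mice at 400 mg/kg above every iv saline mouse (log2 fold change 0.65, 95% interval 0.26 to 1.05, adjusted p = 0.0053), and did not pass by ip (log2 fold change 0.23, 95% interval -0.16 to 0.63, adjusted p = 0.31). Ube2c, another cell cycle E2, is not analysed here. Whether proliferating cells had a part in the levels of Ube2t was not tested.

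Ube2l6 is the interferon-induced E2 for ISG15, a ubiquitin-like protein. Ube2l6 (1417172_at) read 5.23, 5.76 and 6.51 in saline, 4.56, 4.75 and 4.88 at 50, 4.90, 5.53 and 6.06 at 200, and 4.80, 5.48 and 6.22 at 400 mg/kg by the ip route. In iv mice Ube2l6 read 3.95, 4.15 and 4.80 in saline, 3.95, 4.17 and 4.65 at 50, 3.82, 4.10 and 4.58 at 200, and 4.28, 4.65 and 6.25 at 400 mg/kg. It rose by iv, where 2 of 6 mice at 400 mg/kg exceeded every iv saline mouse (log2 fold change 0.78, 95% interval 0.30 to 1.27, adjusted p = 0.0062), and it did not pass by ip (log2 fold change -0.29, 95% interval -0.78 to 0.19, adjusted p = 0.29). All 6 ip 50 mg/kg mice lay below all 6 ip saline mice, and that difference did not pass the test either (-1.05, adjusted p = 0.076). The iv rise was lost with array weights and when the fit held the iv 400 mg/kg and iv saline mice alone. Uba7, the E1 that feeds Ube2l6, rose by both routes (2.02, adjusted p = 2.4e-10 by ip; 1.50, adjusted p = 4.2e-07 by iv).

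Ube2n and its partner Ube2v2 build ubiquitin chains used in signalling and DNA damage tolerance. Ube2n (1422559_at) read 9.88, 10.15 and 10.37 in saline, 9.82, 10.18 and 10.31 at 50, 9.79, 10.15 and 10.25 at 200, and 10.05, 10.38 and 10.71 at 400 mg/kg by the ip route. In iv mice Ube2n read 9.13, 9.41 and 9.69 in saline, 9.16, 9.34 and 9.51 at 50, 9.11, 9.43 and 9.69 at 200, and 9.68, 10.00 and 10.27 at 400 mg/kg. At iv 400 mg/kg 5 of 6 mice exceeded every iv saline mouse (log2 fold change 0.60, 95% interval 0.36 to 0.83, adjusted p = 3.2e-05), and by ip 3 of 6 did so and the test was missed (0.25, adjusted p = 0.058). Its other probe set went the other way, to -0.41 by iv (adjusted p = 0.23) and -0.87 by ip (adjusted p = 0.0059). Ube2v2 averaged 8.91 ± 0.11 in saline, 8.93 ± 0.23 at 50, 8.88 ± 0.13 at 200 and 9.20 ± 0.18 at 400 mg/kg by the ip route. In iv mice Ube2v2 averaged 8.32 ± 0.17 in saline, 8.36 ± 0.16 at 50, 8.56 ± 0.17 at 200 and 8.79 ± 0.24 at 400 mg/kg. The probe set used rose by both routes (ip: 0.29, adjusted p = 0.016; iv: 0.47, adjusted p = 0.00025), and the other fell by both (-1.02 by ip, adjusted p = 0.00026; -0.62 by iv, adjusted p = 0.03), so the direction for Ube2v2 depends on the probe set.

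The E2 enzymes of degradation at the endoplasmic reticulum are Ube2j1, Ube2j2 and Ube2g2. Ube2j1 (1417723_at) read 6.48, 6.59 and 6.83 in saline, 6.67, 6.77 and 7.13 at 50, 6.40, 6.49 and 6.90 at 200, and 6.94, 7.26 and 7.45 at 400 mg/kg by the ip route. In iv mice Ube2j1 read 5.74, 6.73 and 6.83 in saline, 6.27, 6.59 and 7.18 at 50, 6.62, 6.92 and 6.98 at 200, and 6.63, 6.85 and 7.21 at 400 mg/kg. All 6 ip 400 mg/kg mice exceeded all ip saline mice (log2 fold change 0.62, 95% interval 0.32 to 0.92, adjusted p = 0.00038), and 3 of 6 did so by iv (log2 fold change 0.38, 95% interval 0.08 to 0.68, adjusted p = 0.029). The iv rise no longer passed without mouse 1, at 0.23, nor with array weights, at 0.18. Ube2j2 averaged 8.64 ± 0.18 in saline, 8.65 ± 0.17 at 50, 8.57 ± 0.09 at 200 and 8.72 ± 0.23 at 400 mg/kg by the ip route. In iv mice Ube2j2 averaged 8.20 ± 0.23 in saline, 8.06 ± 0.15 at 50, 8.22 ± 0.21 at 200 and 8.50 ± 0.27 at 400 mg/kg, and it rose by iv (0.31, adjusted p = 0.026), though not without mouse 1 (0.24), and did not pass by ip (0.08, adjusted p = 0.58). Ube2g2 averaged 7.84 ± 0.17 in saline, 7.86 ± 0.14 at 50, 7.73 ± 0.15 at 200 and 8.06 ± 0.26 at 400 mg/kg by the ip route. In iv mice Ube2g2 averaged 6.88 ± 0.46 in saline, 6.85 ± 0.22 at 50, 7.04 ± 0.20 at 200 and 7.41 ± 0.32 at 400 mg/kg, and it too rose by iv (0.53, adjusted p = 0.003) and did not pass by ip (0.22, adjusted p = 0.21). Ube2j2 and Ube2g2 thus passed by iv alone, a difference in calls and not a tested difference between routes.

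Among the E2 enzymes with broad target ranges, Ube2e2 and Ube2h rose by both routes. Ube2e2 (1424358_at) read 7.28, 7.49 and 7.51 in saline, 6.97, 7.42 and 7.86 at 50, 7.20, 7.25 and 7.56 at 200, and 7.75, 7.99 and 8.40 at 400 mg/kg by the ip route. In iv mice Ube2e2 read 5.96, 6.41 and 6.58 in saline, 6.08, 6.31 and 6.53 at 50, 6.26, 6.59 and 6.83 at 200, and 6.62, 6.93 and 7.16 at 400 mg/kg. No 400 mg/kg mouse overlapped the saline mice of its route (ip: log2 fold change 0.58, 95% interval 0.33 to 0.83, adjusted p = 7.7e-05; iv: log2 fold change 0.58, 95% interval 0.33 to 0.83, adjusted p = 0.00012). Ube2h (1418631_at), which works with the CTLH ligase, read 7.63, 7.80 and 7.88 in saline, 7.58, 7.79 and 7.95 at 50, 7.63, 7.91 and 7.99 at 200, and 8.18, 8.39 and 8.62 at 400 mg/kg by the ip route. In iv mice Ube2h read 6.62, 7.53 and 7.63 in saline, 6.81, 7.36 and 7.59 at 50, 7.05, 7.62 and 7.74 at 200, and 7.47, 7.95 and 8.05 at 400 mg/kg. At 400 mg/kg all 6 ip mice and 4 of 6 iv mice were above every saline mouse (ip: log2 fold change 0.62, 95% interval 0.34 to 0.91, adjusted p = 0.00016; iv: log2 fold change 0.46, 95% interval 0.18 to 0.75, adjusted p = 0.0054). Mouse 1 was the lowest in iv saline, at 6.62, and the iv call of Ube2h was lost when only the 2 groups compared were fitted (adjusted p = 0.054). Ube2z, which takes ubiquitin from a less common E1, averaged 8.44 ± 0.11 in saline, 8.51 ± 0.09 at 50, 8.48 ± 0.11 at 200 and 8.84 ± 0.14 at 400 mg/kg by the ip route. In iv mice Ube2z averaged 8.13 ± 0.52 in saline, 8.14 ± 0.34 at 50, 8.35 ± 0.24 at 200 and 8.54 ± 0.17 at 400 mg/kg, with a rise by both routes (ip: 0.40, adjusted p = 0.018; iv: 0.41, adjusted p = 0.018). Both calls of Ube2z were lost after centring of the arrays, and the iv call also without mouse 1, at 0.20 (adjusted p = 0.14). Ube2d1 averaged 8.56 ± 0.26 at ip 400 mg/kg and 8.13 ± 0.21 in ip saline, and 7.87 ± 0.32 at iv 400 mg/kg and 7.47 ± 0.42 in iv saline, and rose by both (ip: 0.43, adjusted p = 0.019; iv: 0.41, adjusted p = 0.031). Both calls of Ube2d1 were lost after centring, the ip call also without mouse 106, and the iv call also without mouse 1, 5, 43 or 46 (without mouse 1, 0.28, adjusted p = 0.14).

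Ube2b, Ube2k and Ube2d3 also passed, each with a probe set that disagreed. Ube2b, an E2 of DNA damage tolerance, averaged 10.70 ± 0.22 in saline, 10.67 ± 0.24 at 50, 10.60 ± 0.23 at 200 and 11.02 ± 0.31 at 400 mg/kg by the ip route. In iv mice Ube2b averaged 10.01 ± 0.21 in saline, 10.05 ± 0.24 at 50, 10.00 ± 0.24 at 200 and 10.40 ± 0.25 at 400 mg/kg. The probe set used rose (ip: 0.32, adjusted p = 0.048; iv: 0.39, adjusted p = 0.019) and the other fell (-0.41 by ip, adjusted p = 0.00042; -0.27 by iv, adjusted p = 0.023). Ube2k averaged 10.04 ± 0.13 in saline, 10.07 ± 0.18 at 50, 10.05 ± 0.09 at 200 and 10.36 ± 0.22 at 400 mg/kg by the ip route. In iv mice Ube2k averaged 9.77 ± 0.22 in saline, 9.60 ± 0.21 at 50, 9.86 ± 0.32 at 200 and 10.16 ± 0.24 at 400 mg/kg; the probe set used rose (ip: 0.32, adjusted p = 0.023; iv: 0.39, adjusted p = 0.0075), and another fell by iv (-0.65, adjusted p = 0.011) and gave -0.23 by ip (adjusted p = 0.37). Ube2d3, a broadly acting E2, averaged 11.42 ± 0.23 in saline, 11.37 ± 0.17 at 50, 11.35 ± 0.06 at 200 and 11.54 ± 0.28 at 400 mg/kg by the ip route. In iv mice Ube2d3 averaged 10.94 ± 0.33 in saline, 10.98 ± 0.33 at 50, 10.98 ± 0.22 at 200 and 11.32 ± 0.28 at 400 mg/kg. It rose by iv (0.38, adjusted p = 0.023), though not without mouse 1 (0.31, adjusted p = 0.079), and did not pass by ip (0.13, adjusted p = 0.45), and its 2 other probe sets fell by both routes, by 0.32 and 0.58 by ip and by 0.39 and 0.54 by iv. Over the 15 tested genes with further kept probe sets, 10 of 19 such probe sets had the sign of the one used at ip 400 mg/kg and 8 of 19 at iv 400 mg/kg. The rises of these 3 genes and of Ube2n and Ube2v2 therefore hold for the probe set with the highest mean and not for the gene as a whole. The same limit applies to Psmc6, whose other probe sets gave 0.08 and -0.16 by ip and -0.09 and -0.22 by iv.

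**Figure D3:**
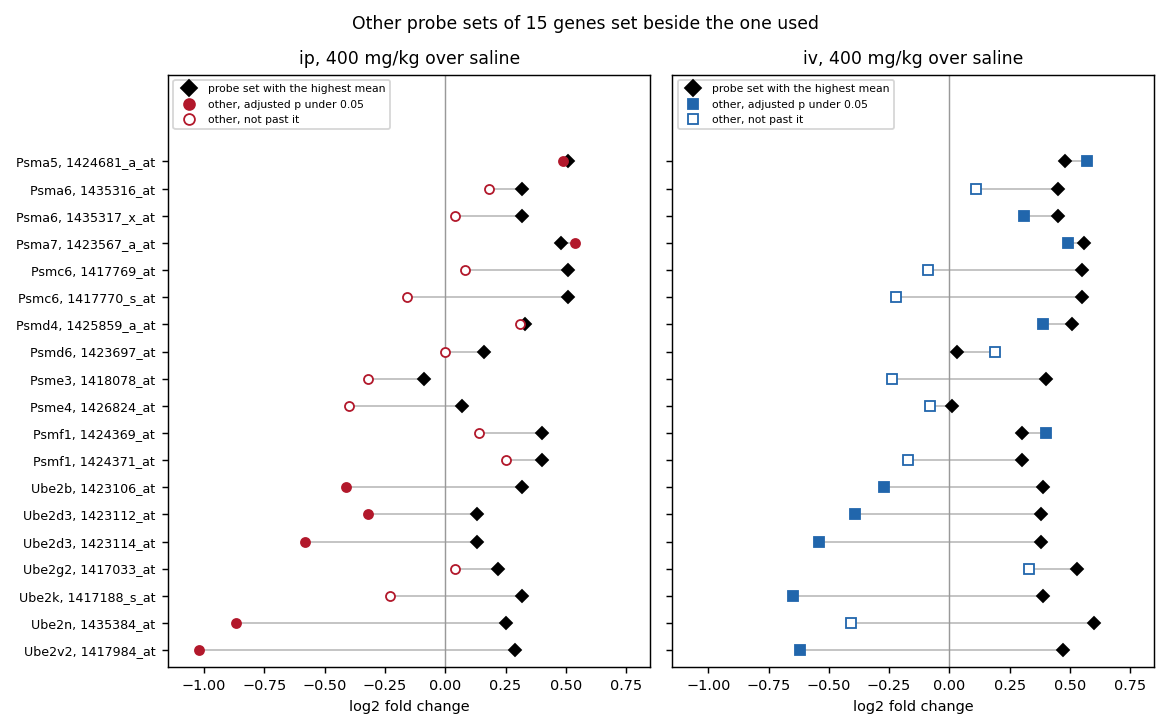
Log2 fold change at 400 mg/kg over saline for the probe set with the highest mean (diamonds) and for each of 19 other probe sets of 15 genes, ip left (circles) and iv right (squares), filled where the other probe set passed adjusted p under 0.05. Psma5, Psma7 and Psmd4 lie close together, and the other probe sets of Ube2b, Ube2d3, Ube2k, Ube2n and Ube2v2 lie left of 0. Those of Psmc6 lie apart from the one used, at 0.08 and -0.16 by ip and -0.09 and -0.22 by iv.

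The E2 genes that did not pass by either route were Ube2a, Ube2e1, Ube2q1 and Ube2w. Ube2a, the close paralog of Ube2b, gave log2 fold change -0.22, 95% interval -0.48 to 0.05, adjusted p = 0.15 by ip and log2 fold change 0.16, 95% interval -0.10 to 0.42, adjusted p = 0.31 by iv. Ube2e1 averaged 11.36 ± 0.07 in saline, 11.40 ± 0.13 at 50, 11.37 ± 0.12 at 200 and 11.38 ± 0.17 at 400 mg/kg by the ip route. In iv mice Ube2e1 averaged 10.49 ± 0.18 in saline, 10.58 ± 0.21 at 50, 10.58 ± 0.10 at 200 and 10.62 ± 0.20 at 400 mg/kg, and the 95% interval of its log2 fold change was -0.17 to 0.20 by ip and -0.05 to 0.32 by iv. Ube2q1 gave 0.17, adjusted p = 0.26 by ip and 0.27, adjusted p = 0.081 by iv. Ube2w, which attaches ubiquitin to the amino terminus of proteins, averaged 8.25 ± 0.19 in saline, 8.29 ± 0.31 at 50, 8.17 ± 0.23 at 200 and 8.32 ± 0.43 at 400 mg/kg by the ip route. In iv mice Ube2w averaged 7.36 ± 0.59 in saline, 7.32 ± 0.57 at 50, 7.36 ± 0.50 at 200 and 7.68 ± 0.62 at 400 mg/kg, with wide intervals at 400 mg/kg (-0.44 to 0.59 by ip and -0.19 to 0.84 by iv).

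Few members passed the test at the lower doses. At iv 200 mg/kg Psme1 and Psma5 rose in limma (0.49, adjusted p = 0.0023 for Psme1, and 0.37, adjusted p = 0.031 for Psma5), 2 of 41 where 6.07% of all tested genes rose. The median log2 fold change was 0.18, and 0.06 over all tested genes. An unadjusted p under 0.05 was found for 13 of 41, where 21.5% of all tested genes had one. Mouse 1 lowers the iv saline mean used here: over the Psm genes it lay at -0.49 and the other iv saline mice at 0.07 to 0.11. Both calls were lost when the fit held only the 2 groups compared, and 10 rose and 1 fell with array weights. The shares of all tested genes in these fits are not given here. At iv 50 mg/kg 0 of 41 passed in limma (0.539% of all tested genes did), and 0 had an unadjusted p under 0.05. At ip 50 mg/kg 0 passed (0.087% of all tested genes), with 1 gene, Ube2l6, at an unadjusted p under 0.05. At ip 200 mg/kg 0 passed (also 0.087%), and 0 had an unadjusted p under 0.05.

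The upper doses were also set against each other. Between ip 400 and ip 200 mg/kg 18 of 41 genes were higher and 1, Psmd9, was lower, where 35.2% of all tested genes were higher and 25.3% lower (median 0.31, and 0.09 over all tested genes). Between iv 400 and iv 200 mg/kg 11 of 41 were higher and 0 lower, where 17.8% of all tested genes were higher (median 0.27, and 0.02 over all tested genes). These 11 were Psma6, Psma7, Psmc6, Psmd8, Psme1, Ube2b, Ube2e2, Ube2l6, Ube2n, Ube2s and Ube2t. Without Ube2t the counts were 17 of 40 higher and 1 lower by ip, and 10 of 40 higher by iv. The comparisons share the 400 mg/kg mice with those against saline.

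In single mice, the median difference of the 22 Psm genes from the saline mean of the route lay between 0.14 and 0.44 at ip 400 mg/kg, against -0.13 to 0.06 in ip saline. It lay between 0.29 and 0.59 at iv 400 mg/kg, against -0.49 to 0.11 in iv saline, and between -0.03 and 0.43 at iv 200 mg/kg. For the 19 Ube2 genes it lay between 0.06 and 0.59 at ip 400 mg/kg, against -0.08 to 0.07 in ip saline, and between 0.24 and 0.65 at iv 400 mg/kg, against -0.38 to 0.22 in iv saline. The Psm medians of the 400 mg/kg mice did not overlap those of saline in either route. For the Ube2 medians the ip groups overlapped and the iv groups did not. These values were not centred on the array medians, which were also higher at 400 mg/kg. No such value over all tested genes is given here, so array scale and dose are not apart in these separations.

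**Figure D4:**
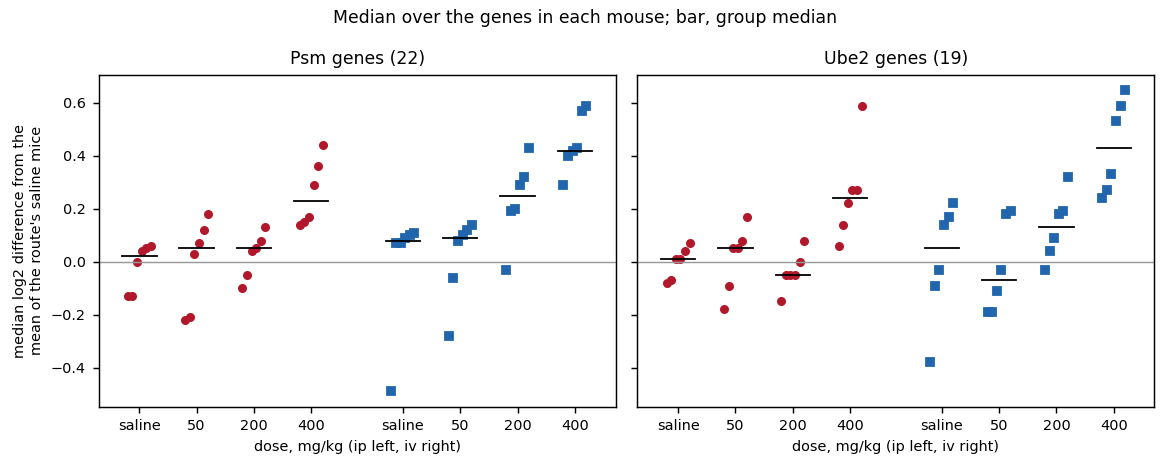
Median log2 difference from the saline mean of the same route over 22 Psm genes (left panel) and 19 Ube2 genes (right panel) in each mouse, doses from saline to 400 mg/kg, ip groups as circles and iv groups as squares, bars at the group medians. All 12 mice at 400 mg/kg lie above 0 in both panels, and mouse 1 of the iv saline group lies lowest, at -0.49 and -0.38. Values are not centred on the array medians, which were also higher at 400 mg/kg.

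Saline mice of the 2 routes differed in most of these genes. In ip saline 31 of 41 genes were higher than in iv saline and 1, Psmg4, was lower, where 55.1% of all tested genes were higher and 2.57% lower (median 0.51, and 0.41 over all tested genes). After quantile normalization, which takes away the difference in scale, 6 were higher and 4 lower, and the share of all tested genes under it is not given here. In 24 of 41 genes every ip saline mouse was above every iv saline mouse, where this held for 36.2% of all tested genes. The 6 largest were Ube2l6 (1.56, adjusted p = 6.7e-07), Ube2e2 (1.11, adjusted p = 5.6e-10), Psmf1 (1.01, adjusted p = 1.4e-05), Ube2g2 (0.96, adjusted p = 9.1e-07), Ube2w (0.89, adjusted p = 0.0028) and Ube2e1 (0.87, adjusted p = 1.6e-10). Psmg4 gave -0.53, adjusted p = 0.0055, with all 6 ip saline mice below all 6 iv saline mice. Mouse 1 lowers the iv saline mean here as well, at 5.32 for Psmf1 (others 6.20 to 6.51) and 6.10 for Ube2g2 (others 6.58 to 7.24). Without mice 1 and 9 Psme3 passed as lower in ip saline (-0.35, adjusted p = 0.0458 in limma). Route and array scale cannot be told apart in these values.

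The effect of 400 mg/kg by ip minus that by iv passed the test for 0 of 41 genes in limma, where 4.31% of all tested genes passed, and 5 had an unadjusted p under 0.05, all with the lower change by ip (Ube2l6, Psmc3ip, Psmg2, Ube2a and Ube2n), where 19.7% of all tested genes had one. Closest were Ube2l6 (log2 fold change -1.08, 95% interval -1.76 to -0.39, adjusted p = 0.058) and Psmc3ip (log2 fold change -0.81, 95% interval -1.33 to -0.29, adjusted p = 0.061), and both passed after quantile normalization. For Psme1 the difference between routes was 0.04 (95% interval -0.26 to 0.35) and for Psmd8 -0.28 (-0.66 to 0.10).

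Other genes of the pathway moved both ways, as did all tested genes. Of 9 tested genes that assist the proteasome, 4 rose and 3 fell at ip 400 mg/kg and 4 rose and 2 fell at iv 400 mg/kg. Of all tested genes 36.3% rose and 25.1% fell by ip, and 30.7% rose and 19% fell by iv. Rad23b, a shuttle that brings ubiquitinated proteins to the proteasome, rose (ip: 0.40, adjusted p = 0.0033; iv: 0.79, adjusted p = 3.1e-07), and Sem1, a small lid subunit, rose as well (ip: 0.47, adjusted p = 0.00038; iv: 0.35, adjusted p = 0.01). Pomp, which matures the core, rose by iv (0.45, adjusted p = 0.00023) and did not pass by ip (0.10, adjusted p = 0.42). The transcription factor gene Nfe2l2 rose by both routes (ip: 0.25, adjusted p = 0.033; iv: 0.55, adjusted p = 1.8e-05). Ngly1, the deglycosylase that activates the proteasome regulator Nfe2l1, fell (ip: -0.58, adjusted p = 3.2e-05; iv: -0.42, adjusted p = 0.0027), and the shuttle Ubqln1 fell too (ip: -0.58, adjusted p = 4.1e-05; iv: -0.33, adjusted p = 0.021). Of 3 tested E1 and ubiquitin genes Uba7 and Nae1 rose by both routes and Uba3 did not pass. Of 17 tested cullin and anaphase-promoting complex genes 8 rose and 2 fell at ip 400 mg/kg and 7 rose at iv 400 mg/kg, beside 36.3% and 30.7% of all tested genes that rose.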

How the data were processed

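The table holds array intensity on a linear scale for 45101 probe sets of 48 arrays, made by the authors with GCRMA per the submitters' processing notes; no version of it, and no list of arrays processed in 1 run, is given here by the labels. No array was left out. Deposited intensity values (1.78 to 63594) were turned to log2, and all differences are on that log2 scale. Rows were named by a known row offset in each of 3 stretches of the table, from the platform's gene symbols; rows with several or no symbol stayed unnamed. Rows were kept where log2 was above 3.47 in at least 6 arrays, and the row with the highest mean stood for each gene.

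All 8 groups entered 1 limma fit (limma 3.58.1, R 4.3.3, lmFit and eBayes with trend), with two-sided tests, Benjamini-Hochberg adjustment over 5748 genes and a threshold of 0.05. Tables were made with Python 3.11.15, numpy 2.4.6, pandas 2.3.3 and matplotlib 3.10.9, and the fit was tested on simulated data. The members and lists were chosen with earlier results of these data known. Genes described in every group were those with the 8 highest and 8 lowest changes among members called at 400 mg/kg, those called at lower doses, and the 6 largest each way between saline groups. Alternatives were median centring, quantile normalization, no filter, a filter at log2 6, array weights, all kept rows, only the groups compared, other probe sets, and leaving out each mouse. Mice were separate animals, and the number of arrays limits the precision. A planned list of genes with patterns like Ube2c and Psme2 could not be made, since neither is analysed here.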

Additional observations from a re-analysis of the deposited data

Results flagged for a closer look

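In each group of 6 mice, the highest or lowest value was compared with the rest by its gap over the group's range (Dixon's test), for 14 genes and the gene-group medians. Of 128 groups checked, 15 had such a mouse, and chance alone gives about 5% of groups.

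Mouse 1 of iv saline was low for Psmc3ip (4.50, others 5.23 to 5.50), Psmc6 (9.60, others 10.00 to 10.18), Ube2h (6.62, others 7.33 to 7.63) and the median difference over the Psm genes (-0.49, others 0.07 to 0.11). In ip saline, Psmc3ip was high in mouse 63 (6.45, others 5.73 to 6.00) and Ube2e2 was low in mouse 62 (7.28, others 7.47 to 7.51).

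At ip 200 mg/kg, mouse 85 was low for Psmd8 (10.40, others 10.64 to 10.74) and Ube2n (9.79, others 10.08 to 10.25), mouse 87 was high for Ube2e2 (7.56, others 7.20 to 7.29) and mouse 86 was high for Ube2t (3.25, others 2.85 to 2.95). At iv 200 mg/kg, Psmd9 was high in mouse 26 (8.80, others 7.52 to 7.99), Ube2h was low in mouse 27 (7.05, others 7.56 to 7.74) and Ube2t was high in mouse 25 (4.52, others 2.93 to 3.45).

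At ip 400 mg/kg, Psmc6 was high in mouse 106 (11.30, others 10.89 to 11.04). At iv 400 mg/kg, Ube2t was low in mouse 45 (4.33, others 5.17 to 5.40), still above every iv saline mouse.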

How the results depend on the processing

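Of the 19 calls at ip 400 mg/kg 12 held under every alternative to the processing, and of the 29 calls at iv 400 mg/kg 16 did, leaving aside other probe sets. Ube2t, which had to differ at 400 mg/kg, is in both counts. The count at ip 400 mg/kg was 12 with arrays centred on their medians, and that between ip 400 and ip 200 mg/kg was 11. Fitting only the 2 groups compared gave 18 at iv 400 mg/kg, 0 at iv 200 mg/kg and 6 between iv 400 and iv 200 mg/kg. Array weights gave 11 at iv 200 mg/kg, 19 between iv 400 and iv 200 mg/kg and 1 at ip 50 mg/kg. Quantile normalization gave 10 between the saline groups and 2 for the route difference, Ube2l6 (-1.26, adjusted p = 0.0399) and Psmc3ip (-0.98, adjusted p = 0.0293). The median over all genes between saline groups was 0.41 as deposited, 0.25 centred and -0.04 after quantile normalization. Leaving out mice 1, 9, 27 and 44, chosen like the pair 1 and 9 after seeing the data, gave 1 at iv 200 mg/kg, 19 between iv 400 and iv 200 mg/kg, and a Psm median of 0.31 at iv 400 mg/kg. The cause was not tested. Leaving out each mouse in turn gave 14 to 21 calls at ip 400 mg/kg and 22 to 30 at iv 400 mg/kg. Shares of all tested genes under these alternatives are not given here. The counts alone therefore do not tell whether the members moved or all genes did. Among genes called in the same comparison, other probe sets had the opposite sign at ip 400 mg/kg for Psmc6 (-0.16), Ube2b (-0.41), Ube2k (-0.23) and Ube2v2 (-1.02). At iv 400 mg/kg they did for Psmc6 (-0.09 and -0.22), Ube2b (-0.27), Ube2d3 (-0.39 and -0.54), Ube2k (-0.65), Ube2n (-0.41) and Ube2v2 (-0.62). No paired analysis was possible because mouse numbers are not shared between groups. Ube2t and the 2 genes that failed the filter lie near the bottom of the measured range, which limits what a fold there can show.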
